A study of Mus musculus with 6 samples.

Results

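Polycomb repressive complex 1 (PRC1) was followed through 10 of its subunit genes, Bmi1, Pcgf2, Rnf2, Ring1, Phc1, Phc2, Phc3, Cbx2, Cbx7 and Cbx8, in sorted cells of mouse skin. The genes were taken as a family of subunits, and every probe set that the platform annotation assigns to 1 of them was read, which gave 22 of 45101 probe sets and 10 of 18193 genes. RNA had been hybridised to 6 Affymetrix oligonucleotide arrays, 1 for each of 3 cell populations in each of 2 genotypes. The populations were basal epidermal cells, matrix cells, which divide in the hair bulb and build the hair, and cells of the outer root sheath (ORS), the outer epithelial layer of the follicle. The genotypes were labelled Ezh1/2 WT and Ezh1/2 2KO, with 2KO for the double knockout of Ezh1 and Ezh2, which encode the enzymes of Polycomb repressive complex 2 (PRC2). All mice were 14 days old and of mixed C57B6 and CD1 background. The 2KO basal epidermis sample came from females and the other 5 samples from both sexes. The alleles, the promoter that drove any Cre, the number of mice per sample and whether the 3 samples of a genotype shared mice are not given in the sources used here. Each group was 1 array, so the differences have no replicates behind them and no p-value is given. In sorted bulk cells, fewer cells of a type and less RNA per cell cannot be told apart.

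PRC1 attaches ubiquitin to histone H2A and compacts chromatin at genes that PRC2 has marked by methylating histone H3. Its catalytic core pairs a RING1 or RNF2 protein with a PCGF protein such as BMI1. In canonical PRC1 a CBX protein reads the PRC2 mark and a PHC protein joins complexes to each other through its SAM domain. Variant forms carry RYBP or YAF2 in place of CBX and PHC. In the epidermis Polycomb proteins are known for holding back the INK4/ARF cell cycle inhibitors and genes of other lineages.

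The targeted genes checked the labels. Ezh2 read 2563, 3578 and 2151 signal units on the WT basal epidermis, matrix and ORS arrays and 432, 1725 and 378 on the 2KO arrays, so it was lower on every 2KO array and least so in matrix. Ezh1 read between 317 and 401 on the WT arrays and between 51.6 and 89.4 on the 2KO arrays. Signals are MAS5 values on a linear scale, and 83.2, the median of all signals, served as a floor: lower signals were raised to it before a ratio was taken.

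Marker genes of the 3 populations were read on the same arrays. The summed signal of 6 basal keratinocyte markers was highest in basal epidermis (102955 in WT and 95346 in 2KO), and that of 8 matrix markers was 57084 on the WT matrix array against 6641 and 5898 on the other WT arrays. The summed signal of 6 ORS markers was 31269 in WT ORS, 20514 in WT basal epidermis and 10471 in WT matrix. Krt17 alone made up 18575, 15857 and 5992 of these sums. Of the ORS markers only Wif1 was higher in WT matrix than in WT ORS (1239 against 228). Among the matrix markers only Gata3 was lower in WT matrix (1542) than in WT basal epidermis (3690) and WT ORS (2568). The 2KO matrix array stood apart. It read 31951 for the ORS markers, of which Krt17 made up 18891, and 45423 for the matrix markers. For the basal keratinocyte markers it read 43625 against 24356 in WT matrix. Markers of other cell types were also higher there than in WT matrix: 3 of 6 skeletal muscle genes, 4 of 7 immune genes and 5 of 7 fibroblast genes by at least 2-fold, with sums of 2368 against 260, 4508 against 887 and 36232 against 19921. The muscle markers Ckm and Myh4 and the fibroblast marker Pdgfra lay below the floor on that array. H2-Eb1 made up 2873 of the immune sum there, against 315 on the WT matrix array. H2-Eb1 was also higher in 2KO than in WT in basal epidermis (3627 against 2232) and ORS (3517 against 1148). The other immune genes called in matrix, Ptprc, Tyrobp and Cd52, read 243, 350 and 260 on the 2KO matrix array. Cd74, Lyz2 and Cd207 were higher there by less than 2-fold. The ratio of 3-prime to 5-prime actin control signal, a sign of RNA quality, was 1.39 to 1.49 on the WT arrays and 1.42, 1.87 and 1.66 on the 2KO basal epidermis, matrix and ORS arrays. The part of these differences in the results below was not tested.

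**Figure D1:**
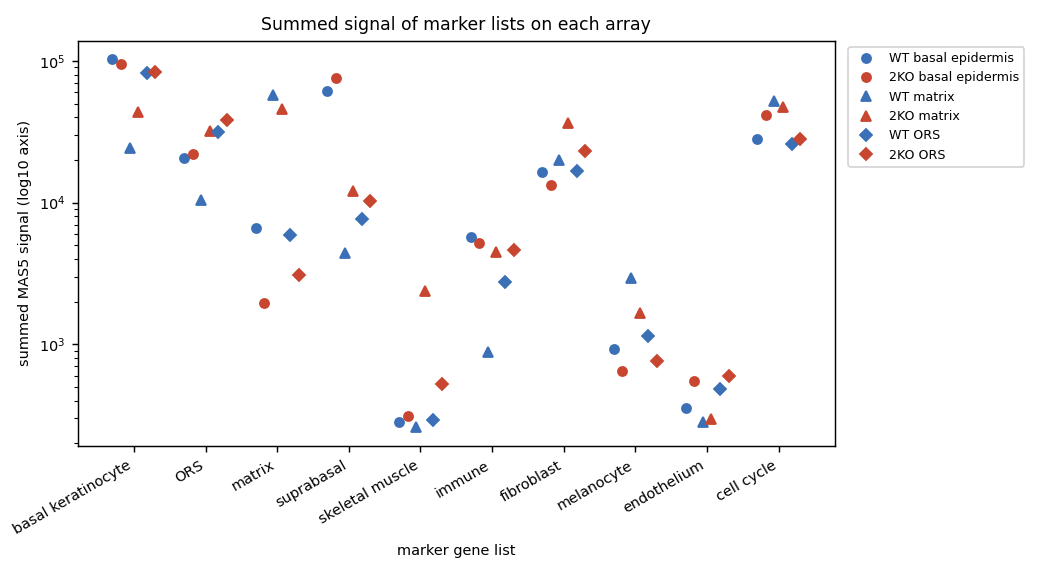
Summed MAS5 signal (log10 axis) of each marker list on each of the 6 arrays, with WT in blue, 2KO in red, circles for basal epidermis, triangles for matrix and diamonds for ORS. The 2KO matrix triangle lies above the WT one for skeletal muscle (2368 against 260) and immune genes (4508 against 887). Of the immune sums H2-Eb1 made up 2873 and 315.

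Of the 22 probe sets of the 10 subunits, 12 were above the floor on all 6 arrays, 1 on some arrays and 9 on none. Each subunit had at least 1 probe set above the floor, and 3 of them, Bmi1, Phc2 and Rnf2, had 2. The brightest probe set stands for its gene. The probe set that stands for Pcgf2 was the 1 above the floor on some arrays only: it read 71.5 on the WT matrix array and 90.1 to 110 on the others.

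Loss of Ezh1 and Ezh2 went with higher Phc1 and Bmi1 signal in basal epidermis and ORS, though Bmi1 in ORS stayed under 2-fold (1.95-fold). The other 8 subunits lay within 2-fold in all populations. In basal epidermis 2 of the 10 subunits, Phc1 and Bmi1, were at least 2-fold higher in 2KO, where 6.59% of the 11527 measured genes were. In ORS 1 of 10, Phc1, was at least 2-fold higher, against 8.16% of 11994 genes. In matrix 0 of 10 reached 2-fold higher, against 9.03% of 11661 genes. No subunit was at least 2-fold lower, against 4.09%, 1.62% and 4.75% of genes in basal epidermis, matrix and ORS. The shares rest on 10 genes. The 1 gene in ORS is near the background, and the 2 in basal epidermis do not stand clear of it. With a common median, the hybridisation controls or a floor at the 75th percentile, 1 subunit was higher in basal epidermis. Over the 10 subunits the median log2 ratio of 2KO over WT came to -0.01 (basal epidermis), 0.10 (matrix) and 0.12 (ORS), beside 0.04, 0.03 and 0.01 over all measured genes. With the arrays scaled to a common median the subunit medians were -0.13, -0.18 and -0.14, beside -0.07, -0.24 and -0.24 over all measured genes, so the sign of the medians in matrix and ORS followed the scaling.

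**Figure D2:**
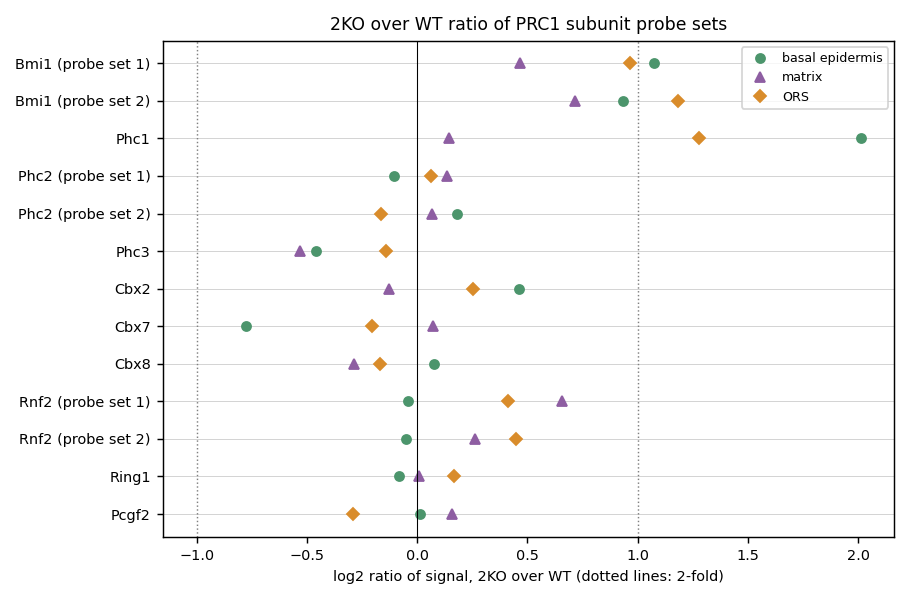
Log2 ratio of signal, 2KO over WT, for each of the 13 subunit probe sets above the floor on any array, with circles for basal epidermis, triangles for matrix and diamonds for ORS; dotted lines mark 2-fold. Phc1 in basal epidermis (2.01) and ORS (1.28) and Bmi1 lie farthest to the right, and the lowest value is that of Cbx7 in basal epidermis (-0.78).

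The sequences upstream of the Phc1 and Bmi1 starts are shown because these subunits differed most between genotypes, and that of Cbx8 is added because it differed most between populations. Each is the 250 bases before the RefSeq start on GRCm38.p6, written 5′ to 3′ on the gene's strand, with every CpG in capitals, since CpG-rich promoters are where Polycomb complexes are known to gather. Bmi1 lies at chr2:18676768-18677017 on the plus strand, Phc1 at chr6:122340228-122340477 on the minus strand and Cbx8 at chr11:119040914-119041163 on the minus strand.
Bmi1: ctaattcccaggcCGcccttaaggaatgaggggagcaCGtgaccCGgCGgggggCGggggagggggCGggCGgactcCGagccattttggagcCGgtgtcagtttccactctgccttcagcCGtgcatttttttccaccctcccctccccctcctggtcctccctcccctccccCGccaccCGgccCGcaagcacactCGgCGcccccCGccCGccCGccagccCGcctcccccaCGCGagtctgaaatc
Phc1: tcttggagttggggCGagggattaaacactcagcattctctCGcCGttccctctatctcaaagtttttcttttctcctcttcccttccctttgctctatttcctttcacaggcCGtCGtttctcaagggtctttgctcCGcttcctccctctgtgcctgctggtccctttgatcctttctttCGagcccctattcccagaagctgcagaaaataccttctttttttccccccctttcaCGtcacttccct
Cbx8: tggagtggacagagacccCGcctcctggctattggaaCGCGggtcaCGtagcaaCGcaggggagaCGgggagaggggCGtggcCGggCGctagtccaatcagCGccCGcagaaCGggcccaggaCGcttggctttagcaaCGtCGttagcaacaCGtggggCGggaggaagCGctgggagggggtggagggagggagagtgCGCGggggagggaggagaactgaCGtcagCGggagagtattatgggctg
The Phc1 sequence holds 8 CpG dinucleotides, that of Bmi1 21 and that of Cbx8 22. RefSeq windows of 300 bases, from 250 before to 50 after the start, were found for 9 of the 10 subunits, 11 windows in all, with 3 for Phc2. Their median CpG count was 23 (from 2 to 45), beside a median of 7 over all 32851 windows, and 10 of the 11 lay above that median. Phc1, with 9 in its window, lay near the low end of the family. The E-box CACGTG, the letters MYC-family proteins read and the same on both strands, was present in 5 of the 11 windows (Bmi1, Cbx8, Pcgf2, Phc3 and 1 of Phc2) and in 7.15% of all windows. TTCCCGCC, letters of an E2F-type site searched on both strands, was in 0 of the 11 and in 2.19% of all windows. These are matches of letters in CpG-rich windows and show no binding.

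Among the PHC genes Phc1 differed most between genotypes. Phc1 read 111, 331 and 201 in WT basal epidermis, matrix and ORS, and 448, 366 and 489 in 2KO. All 3 WT signals lay below all 3 2KO signals, and the WT basal epidermis array was the lowest of the 6. The ratio was 4.04-fold in basal epidermis, 2.43-fold in ORS and 1.10-fold in matrix, each higher in 2KO. In matrix the log2 ratio of 0.14 turned to -0.14 with the arrays scaled to a common median and to -0.49 with scaling to the hybridisation controls. Phc1 has 1 probe set on the array, so no second reading of it was possible. With the floor raised to the 75th percentile of all signals the ORS ratio of Phc1 shrank to 0.07 on the log2 scale, since its WT signal lies under that floor and its 2KO signal just above it. In basal epidermis and matrix both Phc1 signals lie under that floor, so no ratio was measured there.

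Phc2 was level over all arrays, at 2533, 2269 and 1971 in WT and 2358, 2489 and 2061 in 2KO, and its second probe set differed by at most 1.13-fold between genotypes. Phc3 was lower in 2KO in each population, at 845, 861 and 814 in WT against 615, 595 and 738 in 2KO. Its signals did not overlap between genotypes, though the ratios were only 1.38-fold in basal epidermis, 1.45-fold in matrix and 1.10-fold in ORS. Phc1 and Phc3 thus lay on opposite sides of their WT signals in 2KO, and Phc2 on neither.

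BMI1 and PCGF2 are alternative PCGF partners of the catalytic subunit. Bmi1 read 1441, 2574 and 1789 in WT basal epidermis, matrix and ORS, and 3035, 3557 and 3489 in 2KO. The 2KO signals all lay above the WT signals. The 2KO signal was 2.11-fold higher in basal epidermis, 1.95-fold in ORS and 1.38-fold in matrix. A second Bmi1 probe set, with 941, 1318 and 955.6 in WT and 1799, 2163 and 2168 in 2KO, gave 1.91-, 2.27- and 1.64-fold in basal epidermis, ORS and matrix. Which of the populations passed 2-fold therefore depended on the probe set, and the direction did not. Scaling to the hybridisation controls turned the matrix log2 ratio of the brightest probe set from 0.47 to -0.17, and left 0.98 in basal epidermis and 0.80 in ORS. Pcgf2, the paralog of Bmi1, was dim and differed little: 105 and 106 in WT and 2KO basal epidermis, 71.5 and 92.8 in matrix, which is at least 1.12-fold higher in 2KO, and 110 and 90.1 in ORS.

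Commd3, the coding gene just before Bmi1 on chromosome 2 in the RefSeq table and a COMM-domain gene with no known place in PRC1, was looked at after the Bmi1 values were seen. It read 2556, 3179 and 2334 in WT basal epidermis, matrix and ORS and 6393, 3943 and 3933 in 2KO. All 3 2KO signals lay above all 3 WT signals, as for Bmi1, with ratios of 2.501-, 1.24- and 1.68-fold. Transcripts that run from Commd3 into Bmi1 could be read by probe sets of either gene, and their part was not tested.

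Separation of the genotypes over all populations was set against the same count over all genes. All 3 2KO arrays lay above all 3 WT arrays for 2 of the 10 subunits, Bmi1 and Phc1, and for 7.51% of 12651 genes above the floor on any array. They lay below for 1 subunit, Phc3, and for 5.04% of genes. With scaling to the hybridisation controls 0 subunits lay above, against 2.89% of genes, and 2, Phc3 and Cbx7, below, against 14.8%. With a common median 1, Bmi1, lay above, against 4.08%, and 3, Phc3, Cbx7 and Ring1, below, against 11.1%. With the matrix arrays left out, an alternative chosen after the data were seen, 3 lay above (Bmi1, Phc1 and Cbx2), against 20.5% of genes, and 2 below (Phc3 and Cbx7), against 18.8%, which is near the background. In basal epidermis the difference in Phc1 and Bmi1 stood beside a higher summed signal of 7 cell cycle genes, 41515 in 2KO against 27955 in WT. In ORS the same sum was 28248 against 25826. In matrix it was lower in 2KO, at 46957 against 52074, where Bmi1 and Phc1 were also higher. Of the 7 genes 2 were at least 2-fold higher in 2KO basal epidermis, and 0 were in matrix or ORS. The part of proliferation was not tested.

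The catalytic subunits differed less between genotypes. Rnf2, the main E3 ubiquitin ligase of PRC1, read 1948, 1596 and 1962 in WT basal epidermis, matrix and ORS and 1895, 2517 and 2613 in 2KO. It was 1.58-fold higher in 2KO matrix and 1.33-fold higher in 2KO ORS, and the WT and 2KO ranges overlapped. The matrix log2 ratio of 0.66 was 0.03 with scaling to the hybridisation controls and turned to -0.52 with the mean over all Rnf2 probe sets, of which 3 were below the floor on all arrays. A second Rnf2 probe set gave 1.20-fold in matrix and 1.37-fold in ORS. Ring1, its paralog, was the steadiest subunit, with 443, 441 and 460 in WT and 419, 443 and 516 in 2KO. Its highest signal was 1.23-fold its lowest.

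**Figure D3:**
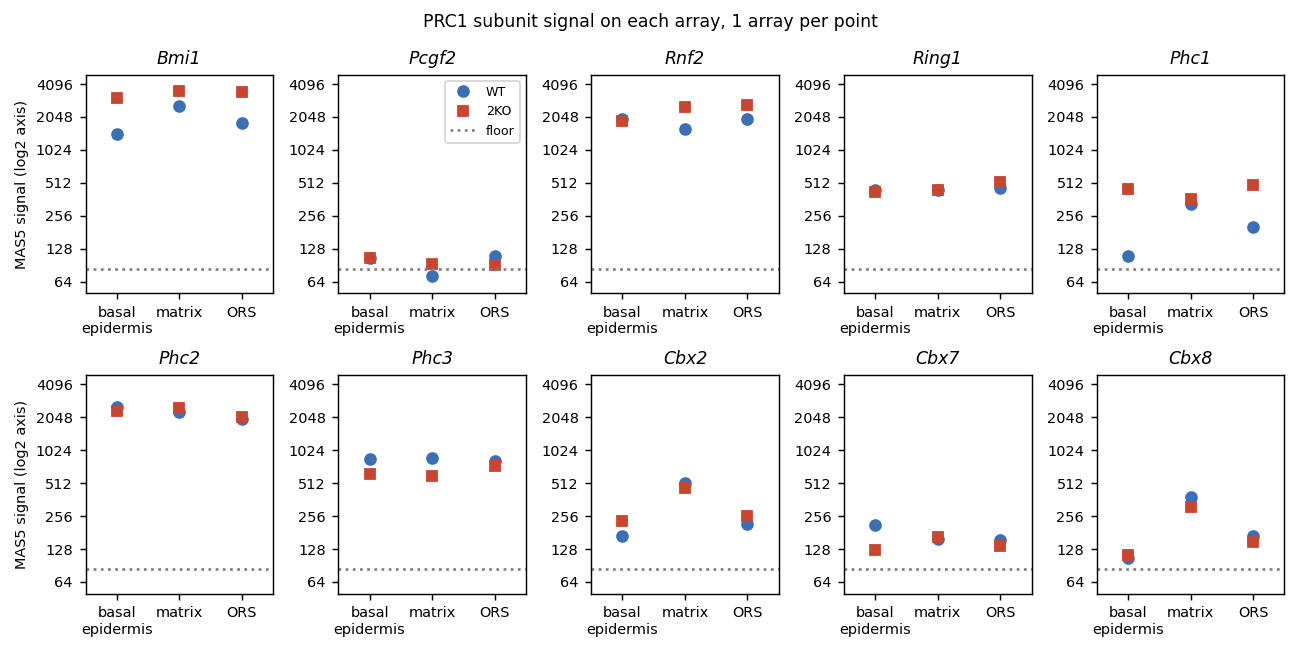
MAS5 signal (log2 axis) of the brightest probe set of each of the 10 subunits on the 6 arrays, with WT as blue circles and 2KO as red squares; the dotted line is the floor of 83.2, and heights are not comparable between genes. Phc1 and Bmi1 separate by genotype in basal epidermis and ORS, and Cbx2 and Cbx8 stand highest in matrix in both genotypes.

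Of the CBX subunits, the readers of the PRC2 mark, Cbx2 and Cbx8 differed by population more than by genotype. Cbx8 read 107 in WT basal epidermis, 380 in WT matrix and 167 in WT ORS, and 113, 311 and 148 in 2KO. Cbx2 read 168, 509 and 215 in WT and 231, 467 and 257 in 2KO. For both genes, 2 of the 10 subunits, both matrix arrays lay above the other 4 arrays, a pattern shared by 20.1% of 12651 genes. It was also seen for 17 of the 35 other PRC1 network genes described below, so it was not particular to Cbx2 and Cbx8. In WT, Cbx8 was 3.56-fold higher in matrix than in basal epidermis and 2.28-fold higher than in ORS, and Cbx2 was 3.03-fold and 2.36-fold higher. The second probe sets of both genes lay below the floor on all 6 arrays, so these values rest on 1 probe set each. In 2KO the same ratios were 2.76- and 2.09-fold for Cbx8 and 2.02- and 1.82-fold for Cbx2. Cbx2 and Cbx8 are neighbours on chromosome 11 in the RefSeq table.

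Cbx7 went the other way in WT, where basal epidermis was highest (214, against 158 in matrix and 156 in ORS). In 2KO it read 125, 166 and 135. It was 1.71-fold lower in 2KO than in WT basal epidermis and 1.15-fold lower in ORS. In matrix it was 1.05-fold higher, a log2 ratio of 0.07 that was -0.21 with a common median, -0.56 with the hybridisation controls and -0.10 after quantile normalization. The other probe sets of Cbx7 lay below the floor on all arrays. Between genotypes Cbx2 was 1.38-fold higher in 2KO basal epidermis. Cbx8 was 1.06-fold higher there, a log2 ratio of 0.078 that was -0.033 with a common median and -0.019 with the hybridisation controls. In basal epidermis Cbx2 and Cbx7 thus differed from WT in opposite directions, each by less than 2-fold, and Cbx8 was level.

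Counted over all 10 subunits, 3 (Phc1, Cbx2 and Cbx8) were at least 2-fold apart between WT basal epidermis and WT matrix, all higher in matrix, where 25.2% of 11270 genes were apart. Between WT matrix and WT ORS 2 were (Cbx2 and Cbx8), against 22.5% of 11433 genes, and between WT basal epidermis and WT ORS 0 were, against 10% of 11320 genes. These shares do not stand clear of the background. With the mean over all probe sets of a gene the counts were 1 for WT basal epidermis against matrix and 0 for WT matrix against ORS. Raising the floor to the 75th percentile left 0 in both. WT matrix was at least 2-fold above both other WT populations for 2 of the 10, Cbx2 and Cbx8, and for 5.94% of genes. In 2KO the counts were 2 (against 14.2%), 1 (against 13.8%) and 0 (against 11%). The summed cell cycle signal was 52074 in WT matrix against 27955 in WT basal epidermis and 25826 in WT ORS. The melanocyte markers summed to 2961 in WT matrix against 934 and 1148, led by Dct (2245). The part of either in the matrix signal of Cbx2 and Cbx8 was not tested.

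For Phc1, Cbx8, Cbx2 and Bmi1, the subunits with the widest range over the 6 arrays, the populations differed less in 2KO. For Cbx2 and Cbx8 that range was the WT spread itself, so a 2KO spread no wider was fixed by this choice. The 2KO matrix array, with its higher ORS and basal keratinocyte markers, enters each 2KO spread, and its part was not tested. The highest WT signal of Phc1 was 2.99-fold its lowest, and 1.34-fold in 2KO. For Bmi1 the spread was 1.79-fold in WT and 1.17-fold in 2KO, for Cbx2 3.03- and 2.02-fold, and for Cbx8 3.56- and 2.76-fold. Scaling changes this spread by moving each array as a whole. The order of the WT signals of Bmi1, Phc1, Cbx2 and Cbx8 was the same, with basal epidermis lowest, then ORS, then matrix. In all, 7 of 10 subunits had a narrower spread in 2KO, beside 60.9% of the 9478 genes above the floor on all 6 arrays, so that narrowing was common on these arrays. Ring1, Phc3 and Rnf2 were the subunits with a wider spread in 2KO.

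Likeness between subunits over the 6 arrays, which share their scaling, is described without a test. The share of like pairs among all genes was not counted. Of the 45 pairs of subunits, 2 had a Pearson r of at least 0.9 over the floored log2 signals of the 6 arrays: Cbx2 with Cbx8 (0.95) and Bmi1 with Phc1 (0.95). The lowest r was that of Phc1 with Cbx7 (-0.87). Among 5435 genes that varied by at least 1 log2 unit, the 5 most like Phc1 were Chst11, a chondroitin sulfotransferase (r = 0.99), Reep1 (0.99), AU020206 (0.99), Fmnl2 (0.98) and Mettl26 (0.98). Chst11 read 129, 787 and 402 in WT basal epidermis, matrix and ORS and 1347, 1258 and 2155 in 2KO. The gene most like Cbx8 was Hoxc13 (r = 0.999), a homeobox gene of the hair matrix, with 189, 5489 and 726 in WT and 225, 3286 and 442 in 2KO. It was followed by Pdp2, Shkbp1, Nfe2l3 and Ttyh2, each with r = 0.99. With 6 arrays such values arise easily: 370 of the 5435 genes had r of at least 0.9 with Cbx8 and 54 with Phc1.

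Other genes of the PRC1 network were read from a list of 39, which included the variant complexes, Scm-like and MBT-domain proteins, and the deubiquitinase group of Bap1. A probe set naming 1 gene was found for 35 of them. In basal epidermis 1 of 33 measured was at least 2-fold higher (6.59% of all genes), in matrix 2 of 33 (9.03%) and in ORS 2 of 34 (8.16%). At least 2-fold lower were 0 in each population, against 4.09%, 1.62% and 4.75% of all genes. Their median log2 ratios were 0.15, 0.07 and 0.23, beside 0.04, 0.03 and 0.01 over all measured genes. On so few genes these shares do not stand clear of the background.

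Sfmbt2, an imprinted MBT-domain gene, was far below the floor on the WT arrays (15.3, 9.68 and 10.6 in basal epidermis, matrix and ORS) and read 1126, 211 and 502 in 2KO. The 2KO signal was higher by at least 13.5-fold (basal epidermis), 2.53-fold (matrix) and 6.03-fold (ORS). Its paralog Sfmbt1 was 1.29-, 1.60- and 1.95-fold higher, and with E2f6 these were the 3 of 35 listed genes of which all 2KO arrays lay above all WT arrays, a share near the 7.51% of all genes. E2f6, a repressor of the E2F family found in a variant complex, was 1.49-, 1.06- and 1.33-fold higher.

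**Figure D4:**
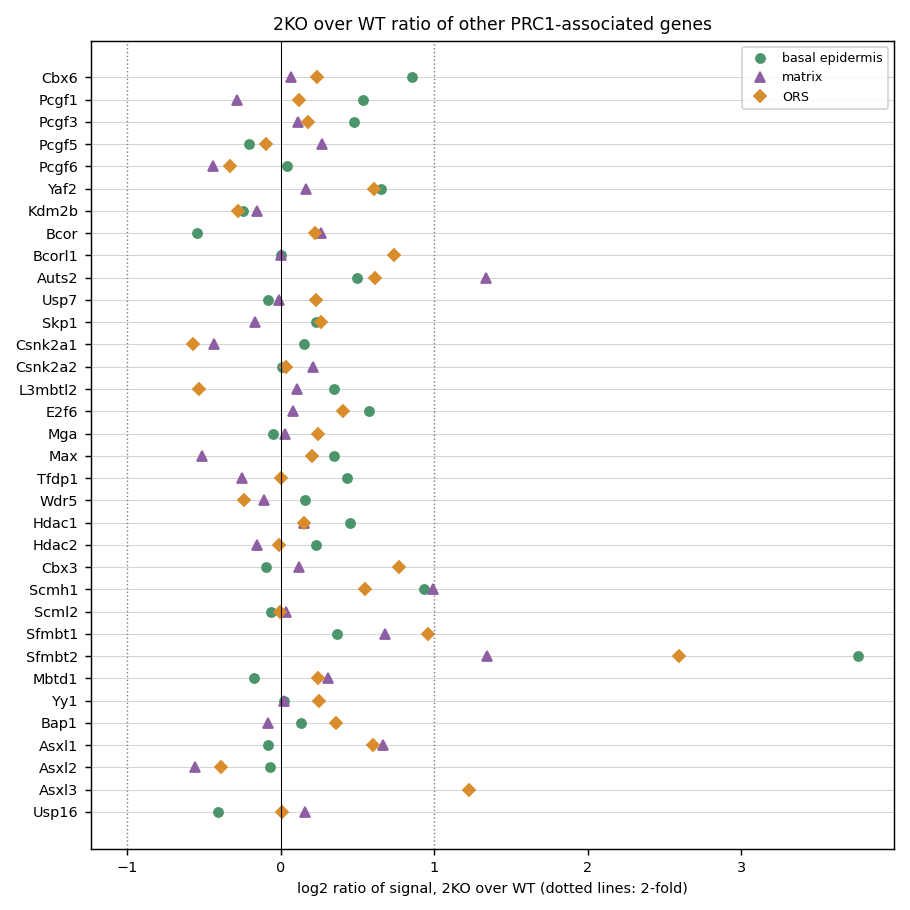
Log2 ratio of signal, 2KO over WT, for the 34 other PRC1 network genes measured in at least 1 population, with circles for basal epidermis, triangles for matrix and diamonds for ORS; dotted lines mark 2-fold, and ratios with a signal raised to the floor are lower bounds. Sfmbt2 is above 2-fold in all 3 populations, and most other genes lie between the dotted lines.

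Auts2, a subunit of the variant complexes that carry PCGF3 or PCGF5, was 2.52-fold higher in 2KO matrix (1353 against 536). It read 2039 in WT ORS and 1733 in WT basal epidermis, the populations whose markers were also higher on the 2KO matrix array. Auts2 was also 1.41-fold higher in 2KO basal epidermis and 1.53-fold higher in 2KO ORS. The part of other cells in its matrix signal was not tested. Asxl3, a partner of the deubiquitinase Bap1, was at least 2.34-fold higher in 2KO ORS (195 against 41.4) and lay below the floor in the other populations. Scmh1, the Scm homolog that binds PHC proteins, came close to 2-fold in basal epidermis (1.91-fold) and matrix (1.99-fold). In basal epidermis Cbx6 (1.80-fold), Yaf2 (1.57-fold) and E2f6 followed. In matrix Sfmbt1 and Asxl1 (1.59-fold) were next and Asxl2 was 1.47-fold lower. In ORS Cbx3 (1.71-fold), Bcorl1 (at least 1.67-fold) and Auts2 (1.53-fold) followed Sfmbt1. The Cbx3 signals lay near the floor (151 in 2KO ORS against 88.5 in WT ORS).

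Cdkn2a, the INK4/ARF gene that BMI1 is known to repress, was below the floor on the WT arrays (26.4 to 55.5) and read 2385, 1256 and 2840 on the 2KO arrays. All 3 2KO arrays thus lay above the WT arrays for Cdkn2a as for Bmi1. Its neighbour Cdkn2b was 5.13-, 1.74- and 8.60-fold higher.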

How the data were processed

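The authors' deposited table holds intensities, 1 MAS5 signal per probe set and array on a linear scale; MAS5 is named in the submitters' processing notes, and the series text reports background-subtracted images. Its version, detection calls and raw scans were not used here. Each array has a 2% trimmed mean of 500.0, so the arrays had been scaled to one total, which hides any shift of most genes in one direction. Probe sets were named by the platform annotation; those naming several genes and 64 control probe sets were left out. The brightest probe set by mean log2 signal stood for each gene. Signals below 83.2 were raised to it, genes with both signals below it counted as not measured, and a ratio of at least 2-fold was called, the fold in the series text. Where only 1 of the signals cleared the floor, the fold is given as at least that size. With 1 array per group nothing was tested, and the number of arrays limits the precision. The calling was run on simulated data with an assumed noise and added changes of 3- and 6-fold. That run does not measure the spread between real arrays or how reliable calls near 2-fold are. Promoter sequences are from RefSeq (GRCm38.p6). All subunits were named, the other genes by a rule of size. The subunits, lists and rules were chosen with earlier results of these data known. Python 3.11.15 and pandas 2.3.3 were used. The 7 alternatives were 3 other scalings, 2 other floors and 2 other choices of probe set.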

Additional observations from a re-analysis of the deposited data

How the results depend on the processing

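No paired analysis was possible because the labels carry no replicate numbers and each group is 1 array; a model of genotype plus population was not run, since different populations are not replicates of one another. Over the 7 alternatives, 181 of 187 subunit ratios kept their call, 6 changed it and 0 called ratios turned sign. Most of these ratios were under 2-fold throughout, since only Bmi1 and Phc1 in basal epidermis and Phc1 in ORS had been called. Bmi1 in basal epidermis lost its call with a common median (log2 ratio 0.96) and with the hybridisation controls (0.98). Phc1 in ORS lost it with the floor at the 75th percentile (0.07). Ratios with both signals under the floor, such as Phc1 in basal epidermis at the 75th percentile, are not among the 187. Of 163 counts and medians under an alternative, 125 stayed within 1.5 times the main count or 0.1 of the main median, and 38 did not; why was not tested, except that a higher floor leaves fewer measured genes.

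With a common median, 1 subunit passed 2-fold higher in basal epidermis, the subunit medians were -0.13, -0.18 and -0.14 in basal epidermis, matrix and ORS, 1 other PRC1 gene was higher in ORS, 1 subunit was apart between 2KO basal epidermis and 2KO matrix, and 1 lay above and 3 below in all 2KO arrays. With the hybridisation controls, 1 subunit was higher in basal epidermis, 1 (Phc3, log2 ratio -1.16) lower in matrix, the medians in matrix and ORS were -0.53 and -0.043, 1 other gene was higher and 4 lower in matrix, 0 subunits were apart between 2KO matrix and ORS and 1 between 2KO basal epidermis and matrix, and 0 lay above and 2 below. After quantile normalization the matrix median was 0.00042, 2 subunits were higher in ORS, Bmi1 being added, and 1 was apart between 2KO basal epidermis and matrix. With a floor at the 75th percentile, 1 subunit was higher in basal epidermis and 0 in ORS, 1 other gene was higher in matrix and 0 in ORS, 1 subunit lay above in all 2KO arrays, and 0 were apart in WT matrix against ORS, WT basal epidermis against matrix, 2KO matrix against ORS or 2KO basal epidermis against matrix. With the mean over all probe sets of a gene, the matrix median was -0.079, 2 subunits were higher in ORS, 1 was apart between WT basal epidermis and matrix, and 0 were in WT matrix against ORS, 2KO matrix against ORS and 2KO basal epidermis against matrix. Without the _s_at, _x_at and _a_at probe sets the ORS median was 0.013. Without the matrix arrays 2 subunits lay below. The alternatives on separation of all arrays were chosen after seeing the data.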

Other observations

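Some coding neighbours of the subunits in the RefSeq table differed more between genotypes than the subunits beside them; these genes were chosen after their values were seen. Pdgfb, a growth factor gene next to Cbx7, read 399, 207 and 574 in WT basal epidermis, matrix and ORS and 373, 1292 and 1709 in 2KO, so it was 6.26-fold higher in matrix and 2.98-fold higher in ORS, where Cbx7 was within 1.15-fold. Niban1, next to Rnf2, was below or near the floor in WT (44.6 to 88.7) and read 263, 351 and 230 in 2KO, at least 3.16-fold, at least 4.22-fold and 2.59-fold higher. Prkci, an atypical protein kinase C gene next to Phc3, was lower in 2KO like Phc3, by 1.501-, 1.07- and 1.67-fold. M6pr, next to Phc1, was 1.11-, 1.43- and 1.51-fold lower while Phc1 was higher.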
